A study of Mus musculus with 17 samples.

Results

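PSC4 and PSC5 are mouse pancreatic stellate cell lines (wild-type, strain C57BL/6J), and their RNA was compared here across 4 culture media. The comparison held 14 of the 17 sequenced libraries: 6 of PSC4 (replicate numbers 2 and 3) and 8 of PSC5, with the medium as a covariate. The remaining 3 libraries, labelled PSC4 replicate 1, were left out because their expression resembled PSC5, and they were placed on the resulting genes afterwards. All cells were grown for 4 days in Matrigel, an extract of basement membrane that sets as a gel. The media were control medium (2 PSC4 and 2 PSC5 libraries), medium with 20 ng/mL TGF-beta (2 and 2), medium conditioned by pancreatic tumour organoids, called CM (1 and 2), and CM with 300 nM of the ERBB kinase inhibitor neratinib (1 and 2). The left-out libraries came from control medium, CM and CM with neratinib.

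Each line is a single line, so replicates were libraries of the same line and their spread may be technical. PSC4 was at passage 23, 24 or 25 for replicates 1, 2 and 3, and PSC5 at passage 27 or 28 for replicates 1 and 2. Passage and line cannot be told apart in the 14 libraries. The labels give the conditioned media a code, T8 for replicate 1 and T6 for replicate 2, so both kept PSC4 libraries in conditioned medium carried T6 while PSC5 had both codes. Library totals lay between 22168953 and 29421447 counts. Levels are in CPM, that is counts per 1e6 of a library's corrected total.

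Pancreatic stellate cells are resident fibroblast-like cells of the pancreas, which store retinoids when quiescent and deposit matrix when activated. Fibroblasts keep a record of where in the body they arose in the expression of Hox genes and of organ-identity transcription factors such as Gata4, Barx1, Foxf1 and Nkx2-3, and this record is known to persist in culture. Lines can also differ by the growth signals they secrete and by changes in chromosome number gained during passage.

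Because libraries were removed on their expression, values of the 14-library contrast are a description, and its adjusted p only sorted genes. Of 14817 genes measured, 6016 had an edgeR adjusted p under 0.05 and are called here (40.6%), 3028 higher in PSC4 (20.4%) and 2988 higher in PSC5 (20.2%). Most of these differences were small. Their median size was 0.34 on the log2 scale, and 4118 of them (68.5%) were under 0.5. A log2 difference of at least 1 was seen in 942 genes (6.36%), 611 higher in PSC4 (4.12%) and 331 higher in PSC5 (2.23%). At a size of 2 or more there were 197 genes higher in PSC4 and 112 higher in PSC5. The CPM of the 6 PSC4 and 8 PSC5 libraries did not overlap in 944 genes (6.37%), 407 higher in PSC4 (2.75%) and 537 higher in PSC5 (3.62%).

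The promoters of 3 genes with large differences between the lines are shown, each as the 250 bases before the RefSeq start site on GRCm38.p6, with CpG pairs in capitals. Gas6 (chr8:13494536-13494785, minus strand) and Nkx2-3 (chr19:43612075-43612324, plus strand) were the genes higher in PSC4, and Pcdh17 (chr14:84443313-84443562, plus strand) was higher in PSC5.
Gas6: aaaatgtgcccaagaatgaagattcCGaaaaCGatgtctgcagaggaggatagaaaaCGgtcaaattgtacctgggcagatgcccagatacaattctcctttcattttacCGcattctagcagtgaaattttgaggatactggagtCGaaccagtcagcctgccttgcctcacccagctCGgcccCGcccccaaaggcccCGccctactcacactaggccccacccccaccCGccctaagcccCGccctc
Nkx2-3: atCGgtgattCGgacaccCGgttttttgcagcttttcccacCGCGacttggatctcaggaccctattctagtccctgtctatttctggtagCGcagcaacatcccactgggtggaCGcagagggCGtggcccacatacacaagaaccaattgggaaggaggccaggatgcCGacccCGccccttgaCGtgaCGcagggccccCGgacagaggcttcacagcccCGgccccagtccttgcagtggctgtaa
Pcdh17: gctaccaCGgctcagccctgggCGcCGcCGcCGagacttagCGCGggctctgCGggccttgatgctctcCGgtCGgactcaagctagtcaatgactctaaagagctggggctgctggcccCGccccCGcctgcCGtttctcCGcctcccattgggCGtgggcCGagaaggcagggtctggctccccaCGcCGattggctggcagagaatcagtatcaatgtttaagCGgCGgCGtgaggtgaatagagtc
The 3 windows held 10, 14 and 21 CpG pairs. Windows were found for 10921 of 14746 measured genes with a symbol, and the median over these was 15 CpG pairs. The median was 12 in 433 called genes at least 1 higher in PSC4, 8 in 235 called genes at least 1 higher in PSC5, and 17 in 3917 called genes with a smaller difference. Fewer than 5 CpG pairs were present in 12.6% of all windows, in 22.4% of the genes higher in PSC4 by at least 1 and in 30.2% of those higher in PSC5. The letters TATAAA, searched on both strands, stood in 6.65% of all windows, in 12% of the first set and in 6.38% of the second. These shares are a description, and no factor or methylation was measured at these promoters.

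Genes were named by a rule: called, without overlap, and with an average level of 10 CPM or more in the line that was higher, the 12 largest on each side. By this rule Gas6, a secreted ligand of the TAM receptor kinases, had the largest difference towards PSC4 (chromosome 8, 13465374 to 13494490). Its level in control medium was 222 and 268 CPM in the PSC4 libraries and 6.36 and 7.37 CPM in the PSC5 libraries. With TGF-beta it was 12.6 and 9.53 CPM in PSC4 and 0.171 and 0.287 CPM in PSC5. Both lines had less Gas6 with TGF-beta, and the gap between them was kept. In CM the single PSC4 library had 91.6 CPM against 3.85 and 1.35 CPM, and with neratinib 143 against 3.19 and 1.60 CPM. The fitted log2 difference was 5.35 (SE 0.21).

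Auts2, a nuclear regulator of transcription known from neural development, ranged from 26.4 over a median of 101 to 126 CPM in PSC4 and from 0.205 over 7.29 to 16 CPM in PSC5 (log2 difference 4.00, SE 0.30). Itgbl1, a secreted protein related to integrin beta chains, had 5.80 to 27 CPM in PSC4 and 0.217 to 2.48 CPM in PSC5 (3.90, SE 0.19). Its highest values in both lines came with TGF-beta, at 25 and 27 CPM in PSC4 and 2.48 and 1.60 CPM in PSC5. The other genes chosen by the same rule were Tshz2, Gata4, Plce1, Hspb7, Chrdl1, Prelp, C2, Serpine2 and Lum, with log2 differences from 3.64 down to 2.58. Serpine2 is a secreted serine protease inhibitor, Chrdl1 a BMP antagonist, C2 a complement component, and Prelp and Lum are small leucine-rich proteoglycans of the matrix. Serpine2 had 40.5 to 177 CPM in PSC4 and 4.62 to 40.2 CPM in PSC5, so its ranges came close without meeting.

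On the PSC5 side the largest difference by the same rule was in Elavl2, a neuronal-type RNA-binding protein (chromosome 4, 91250763 to 91400785). In control medium it had 24.7 and 24 CPM in PSC5 and 0.356 and 0.246 CPM in PSC4. In the other media PSC5 held 4.10 to 11.8 CPM, and no PSC4 library was above 0.387 CPM. The fitted log2 difference was -5.75 (SE 0.26). Pcdh17, a protocadherin of cell adhesion, had 6.50 to 26.0 CPM in PSC5 and 0.352 to 0.902 CPM in PSC4 (-4.24, SE 0.24). Mdk encodes midkine, a heparin-binding growth factor, and had 5.41 to 16.1 CPM in PSC5 and 0.376 to 1.34 CPM in PSC4 (-4.00, SE 0.24).

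Igf2bp1, an RNA-binding protein of embryonic tissues that stabilises growth-related messages, had 39.2 to 66.1 CPM in PSC5 and 8.99 to 13.6 CPM in PSC4 (log2 difference -2.25, SE 0.12), with little variation among the media. Lin28b, which blocks maturation of let-7 microRNAs, had no count in the 6 PSC4 libraries and 0.638 to 3.18 CPM in PSC5, so it was at least 16.2-fold higher in PSC5. That bound sets the PSC5 mean against 3 counts in a PSC4 library. Hmga2, a chromatin protein whose message let-7 represses, had a median of 318 CPM in PSC5 and 166 CPM in PSC4 (-0.86, SE 0.08), and its ranges overlapped. Lin28b and Hmga2 lie outside the rule and were singled out after their values were seen. The remaining genes chosen by the rule were Oas1g, Tenm3, Gpr149, Sox11, Hapln4, Adamts14, Procr and Grik5, with log2 differences from -2.44 to -1.10.

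**Figure D1:**
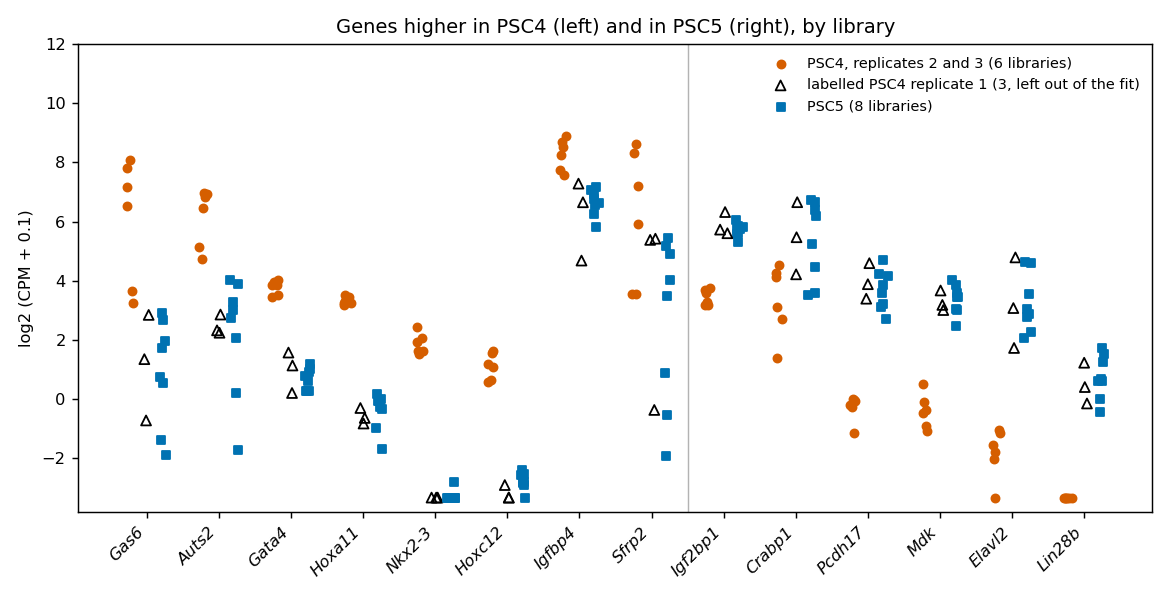
Level of 14 genes in each library as log2 of CPM plus 0.1; circles are the 6 PSC4 libraries, squares the 8 PSC5 libraries and open triangles the 3 libraries labelled PSC4 replicate 1. Genes left of the line were higher in PSC4 and those right of it higher in PSC5; Sfrp2 and Crabp1 are the genes whose line ranges overlap, and Lin28b is at 0 in every PSC4 circle.

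The sign of the line difference was compared across the media. Of the 6016 called genes, 5750 (95.6%) had the same sign in all 4 media, as did 871 of the 942 genes with a difference of at least 1, and 54.5% of all genes measured. Called genes were selected on these same libraries, which favours a shared sign, so the gap to all genes is a description. The genes named for not overlapping have the same sign in each medium by that rule. Within single media, fewer genes passed an adjusted p of 0.05 in edgeR: 1154 in control medium (7.79%), 2520 with TGF-beta (17%), 170 in CM (1.15%) and 234 in CM with neratinib (1.58%). Of these genes, those higher in PSC4 were 574 in control medium (3.87% of all genes), 1389 with TGF-beta (9.37%), 120 in CM (0.81%) and 153 in CM with neratinib (1.03%). Those higher in PSC5 were 580 (3.91%), 1131 (7.63%), 50 (0.337%) and 81 (0.547%). The 2 conditioned media had 1 PSC4 library each, which was taken to vary like the other groups. Both of these libraries carried code T6 while PSC5 had T6 and T8, so line and medium code are partly mixed in these media.

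**Figure D2:**
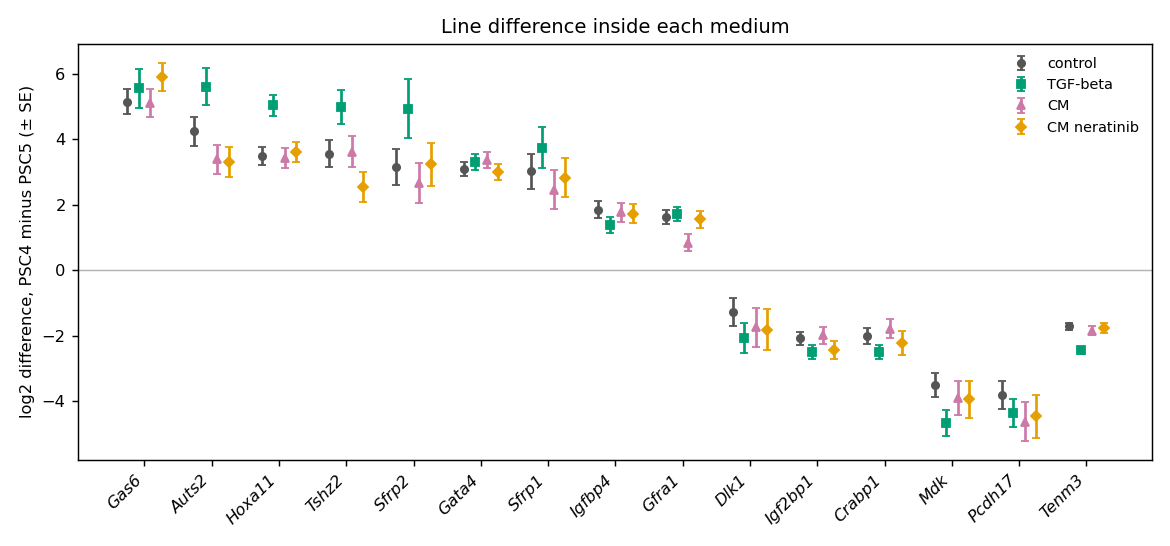
Fitted log2 difference between PSC4 and PSC5 inside each of the 4 media for 15 genes, with bars of 1 SE. Points above 0 are higher in PSC4; the 4 points of a gene lie on the same side of 0 for every gene shown, from Gas6 (5.11 to 5.91) to Pcdh17 (-4.61 to -3.81).

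The test of the line difference on the labels alone used all 17 libraries. It called 945 of 14449 genes (6.54%, edgeR adjusted p under 0.05), 652 higher in PSC4 (4.51%) and 293 higher in PSC5 (2.03%). Of these, 170 (1.18% of the genes tested) differed by at least 1, 142 higher in PSC4 (0.983%) and 28 higher in PSC5 (0.194%). All 945 were also called with 14 libraries and had the same sign there, and they were 15.7% of the genes called with 14. The 12 named genes higher in PSC4 all passed this test, with adjusted p from 0.0216 to 0.0477 in edgeR. Of the 12 higher in PSC5, Tenm3 and Sox11 passed and the others had adjusted p up to 0.25. The genes were named from 14 of the same libraries, so these counts are not independent evidence. With the replicate number as a block, 6 genes in all were called, and none of the 12 higher in PSC4 passed. Their adjusted p in that edgeR fit ran from 0.0679 (Itgbl1 and Gata4) to 0.24 (Auts2). Tenm3 and Sox11 did not pass it either, nor did the other genes described below as passing as labelled. Of all genes named, Nkx2-3 (adjusted p 0.0133) and Alx1 (0.0425) kept the call in that fit. The total rested on single libraries. It fell to 0 without PSC5 control replicate 2, PSC4 TGF-beta replicate 3 or PSC5 TGF-beta replicate 2, and to 4, 6 and 18 without PSC4 CM replicate 2, PSC4 TGF-beta replicate 2 or PSC5 TGF-beta replicate 1. It was 113 and 196 without PSC4 control replicate 3 or 2, 125 without PSC4 CM neratinib replicate 2, 236 without PSC5 control replicate 1, 239 without PSC5 CM replicate 2, and 237 and 356 without PSC5 CM neratinib replicate 2 or 1. Without the PSC4 replicate 1 library it was 2258 in CM, 2386 in control medium and 3006 in CM with neratinib, and without PSC5 CM replicate 1 it was 697.

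Hox genes, which record position along the body axis, differed at the ends of the A and C clusters. Of 39 Hox genes, 31 were measured and 21 called with 14 libraries, 14 higher in PSC4 and 7 higher in PSC5, against 40.6% of all genes called. Of the HoxA genes with paralogue number 9 to 13, 4 of 4 were higher in PSC4, with a median log2 difference of 2.25. Of the HoxC genes with those numbers, 5 of 5 were higher, with a median of 3.18, also with Hoxc11 at its lower bound. The lower-numbered HoxA genes had a median of 0.23 and the lower-numbered HoxC genes 0.31, although Hoxc8 among the latter was called at 2.10. High-numbered genes of the other clusters did not all differ: Hoxb13 (0.03) and Hoxd9 (0.12) were not called. Hoxd8, the other HoxD gene measured, was called at 0.74. As labelled, 5 Hox genes passed the test, all higher in PSC4, where 4.51% of all genes passed in that direction.

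Hoxa11 (chromosome 6, 52242106 to 52245810) was nearly constant over the media in PSC4, with 8.89 to 11.5 CPM, and had 0.214 to 1.04 CPM in PSC5. Its log2 difference was 3.85 (SE 0.22), and as labelled 3.20 (adjusted p 0.027, edgeR). Hoxc12 had 1.41 to 2.99 CPM in PSC4 and at most 0.0911 CPM in PSC5. Hoxc11 had 252 counts in all over the 6 PSC4 libraries and none in the 8 PSC5 libraries, and was at least 13-fold higher in PSC4 (PSC4 mean against 3 counts in a PSC5 library). These genes were low in PSC4, and at this depth few or no counts were seen in PSC5. Hoxa9 and Hoxa10 were higher in level and differed less: Hoxa10 had 28.4 to 42.2 CPM in PSC4 and 16.2 to 26.2 CPM in PSC5 (log2 difference 0.68, SE 0.07).

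HoxB genes lie on chromosome 11, and 6 of the 9 measured were called, all higher in PSC5. Of all genes measured on that chromosome 63.3% were called, and 680 of 1166 were called higher in PSC5, so this count was near that of the chromosome. Their size was small: Hoxb9 had 111 to 137 CPM in PSC4 and 141 to 177 CPM in PSC5 (log2 difference -0.38, SE 0.04), beside a median of -0.27 over all genes of that chromosome. With the median of the own chromosome taken off, 3 of the 21 called Hox genes turned sign.

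Organ-identity transcription factors leaned towards PSC4: 51 of a list of 60 were measured and 28 called (54.9%, against 40.6% of all genes), 22 higher in PSC4 and 6 higher in PSC5. Over all genes 20.4% were higher in PSC4 and 20.2% higher in PSC5. The list's median log2 difference was 0.27, against 0.01 over all genes. As labelled, 7 passed higher in PSC4 and 1 higher in PSC5, against 4.51% and 2.03% of all genes. Nkx2-3, a homeobox factor of gut and spleen mesenchyme (chromosome 19, 43612325 to 43615892), had 604 counts in all in PSC4 (2.82 to 5.31 CPM) and 1 count in all in PSC5. The ratio of its mean CPM was 685, with a counting interval from 123 to 27051. It had no count in any of the 3 left-out libraries.

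Gata4, a factor of foregut mesenchyme and other mesoderm, had 10.8 to 16.3 CPM in PSC4 and 1.11 to 2.19 CPM in PSC5 (log2 difference 3.19, SE 0.11; as labelled 2.65, adjusted p 0.022, edgeR). Barx1, a homeobox factor of stomach and spleen mesenchyme, had 61.4 to 102 CPM in PSC4 and 13.6 to 41.7 CPM in PSC5. Foxf1, a forkhead factor of gut mesenchyme that responds to hedgehog signals, had 10.5 to 25.4 CPM and 2.13 to 8.50 CPM. None of these 3 genes overlapped between the lines. Nkx2-3, Barx1, Foxf1 and Gata6 were singled out after their values were seen. Neither Barx1 (1.09, adjusted p 0.0678) nor Foxf1 (1.19, adjusted p 0.0594) passed the edgeR test as labelled. Alx1 and En1, homeobox factors of other regions, were 2.24 and 1.74 higher in PSC4. Gata6, the relative of Gata4, was the other way round, with 14.8 to 22.1 CPM in PSC4 and 22.2 to 28.8 CPM in PSC5.

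Secreted signals and their antagonists included 79 measured genes of 89, and 41 were called (51.9%, against 40.6% of all genes), 28 higher in PSC4 and 13 higher in PSC5. The list's median was 0.23. Sfrp2, a secreted WNT antagonist, had 321 and 391 CPM in the PSC4 control libraries and 36.1 and 43.6 CPM in those of PSC5. With TGF-beta it had 11.8 and 11.6 CPM in PSC4 and 0.598 and 0.164 CPM in PSC5. The ranges of the lines overlapped over all media, while PSC4 was higher within each medium (fitted log2 difference 3.24, SE 0.32). Sfrp1, another WNT antagonist, was 3.02 higher (SE 0.28) and Bmp4 3.43 higher (SE 0.29) in PSC4. Bmp4 had 1.37 to 10.1 CPM in PSC4 and 0.0821 to 0.935 CPM in PSC5.

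Igfbp4, which binds insulin-like growth factors, was the most abundant gene that differed by at least 1 without overlap. It had 190 to 473 CPM in PSC4 and 56.8 to 143 CPM in PSC5 (log2 difference 1.67, SE 0.13). It lies on chromosome 11, where most genes were lower in PSC4. Gfra1, a receptor for GDNF, had 69.3 to 187 CPM in PSC4 and 23.9 to 64.4 CPM in PSC5. Signals higher in PSC5 were fewer. Besides Mdk they included the EGF-family ligand Hbegf (-0.91, SE 0.09), the lymphatic growth factor Vegfc (-0.75, SE 0.13) and Igfbp3 (-1.23, SE 0.37), each with overlapping ranges.

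Of 25 genes of p53 and of cell-cycle arrest, all were measured and 13 called (52%, against 40.6% of all genes), 11 higher in PSC5 and 2 higher in PSC4, with a median of -0.41. Cdkn1a, the p53-induced inhibitor of cyclin-dependent kinases, had 125 and 87.0 CPM in the PSC4 control libraries and 232 and 267 CPM in those of PSC5. Its overall log2 difference was -0.89 (SE 0.20), with overlap across media. Ccng1 (-1.03, SE 0.20), Mdm2 (-0.57, SE 0.13), Zmat3 (-0.61, SE 0.16) and Trp53 itself (-0.41, SE 0.06) also leaned to PSC5. Trp53 and Ccng1 lie on chromosome 11, and the list's median was -0.42 once the median of each gene's chromosome had been taken off. Cdkn2a was high in both lines, at 323 to 478 CPM in PSC4 and 283 to 523 CPM in PSC5.

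In the proliferation list 18 of 30 genes were called (60%, against 40.6% of all genes), 15 higher in PSC4 and 3 higher in PSC5, and all were under 1 in size. Kif11, a spindle motor, had 206 to 287 CPM in PSC4 and 159 to 206 CPM in PSC5 (log2 difference 0.35, SE 0.04), and passed as labelled (0.25, adjusted p 0.0367, edgeR). The list's median was 0.11. As labelled 5 of these genes passed, each higher in PSC4. Over all genes tested as labelled, 4.51% passed higher in PSC4 and 2.03% higher in PSC5. Of the 25 genes of the p53 list, 1 passed in each direction as labelled, near those shares. The one higher in PSC4 was Cdkn2c, another inhibitor of cyclin-dependent kinases (0.45, adjusted p 0.0344, edgeR).

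The myofibroblast list, which holds contractile and matrix genes, had 8 of 24 members called, all higher in PSC5 (33.3%, below the 40.6% of all genes). These included Tagln (log2 difference -0.95, SE 0.13) and Acta2 (-0.56, SE 0.18), both contractile. Collagen Col1a1 had overlapping levels in the lines, with medians of 1405 CPM in PSC4 and 1768 CPM in PSC5, and was not called. Interferon-response genes had 9 of 25 called, 8 of them higher in PSC5, with Oas1a at -1.56 (SE 0.25) and Oas2 at -1.62 (SE 0.40). The share of that list called, 36%, was also below that of all genes. In the list of matrix and basement membrane genes 19 of 50 were called, 14 higher in PSC4 and 5 higher in PSC5. This share of 38% was below the 40.6% of all genes as well.

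Of the retinoid and lipid-droplet genes, the store-keeping side of stellate cells, 13 of 22 were called (59.1%, against 40.6% of all genes), 8 higher in PSC4 and 5 higher in PSC5. All genes called were also divided nearly evenly, 20.4% higher in PSC4 and 20.2% higher in PSC5. Crabp1, a cytosolic retinoic acid-binding protein, had 2.50 to 23 CPM in PSC4 and 11.5 to 105 CPM in PSC5 (log2 difference -2.14, SE 0.14). Its relative Crabp2 leaned the other way (0.94, SE 0.20) and passed as labelled (0.72, adjusted p 0.0476, edgeR). Cebpa, a factor of adipocyte differentiation, was 1.77 higher in PSC4 (SE 0.12). Among imprinted genes 8 of 19 were called, 4 in each direction, and this share of 42.1% was near that of all genes. Dlk1 (-1.70, SE 0.24) and Grb10 (-0.84, SE 0.06), both imprinted growth regulators, were higher in PSC5, and both passed as labelled with adjusted p of 0.0444 and 0.0393 in edgeR.

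Both lines carried the RNA of mesenchymal cells. All 12 stellate and fibroblast markers were measured, and their summed level was 5460 to 17544 CPM in PSC4, 4148 to 20435 CPM in PSC5 and 4354 to 7236 CPM in the left-out libraries. Desmin (Des), a muscle-type filament also used to mark stellate cells, was low in both lines, at 0.586 to 1.30 CPM in PSC4 and 1.43 to 3.69 CPM in PSC5. The immune marker Ptprc had at most 0.0427 CPM in any of the 14 libraries, and the endothelial marker Pecam1 at most 0.722 CPM. The 10 immune markers summed to 2.25 to 4.03 CPM in PSC4 and 2.86 to 4.47 CPM in PSC5, and the 8 endothelial markers to 2.31 to 8.81 CPM and 1.65 to 4.62 CPM.

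Epithelial RNA followed the medium code. The 15 epithelial markers summed to 147 to 325 CPM in the 4 libraries of code T6, 9.79 to 52.4 CPM in the 4 of code T8 and 14.9 to 23.5 CPM in the media without a code. Krt8 had 38.0 to 93.5 CPM with T6 and at most 9.48 CPM with T8. Of 13 measured epithelial markers 1 was called between the lines (7.69%, against 40.6% of all genes), Muc1 (0.82 higher in PSC4). Without the conditioned media, 4814 of 14008 genes tested were called between the lines, against 6016 of 14817 with all media. Whether epithelial RNA had a part in the line difference was not tested.

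The sum of the mesothelial markers leaned to PSC5, at 6.85 to 40.8 CPM in PSC4 against 16.1 to 82.6 CPM, with overlap. In conditioned media it was partly mixed with the medium code. In CM the PSC4 library (T6) had 40.8 CPM, and PSC5 had 79.5 CPM with T6 and 41.8 CPM with T8. With neratinib these values were 28.5, 82.6 and 27.6 CPM. Msln, the mesothelin gene, had 3.59 and 0.949 CPM in the PSC4 control libraries and 22.9 and 29.5 CPM in those of PSC5 (log2 difference over all media -2.59, SE 0.49). Of the 6 mesothelial markers measured, 3 were called, 2 of them higher in PSC4. The part of other cell types in the line difference was not tested. In bulk RNA, fewer cells with a transcript and less of it per cell cannot be told apart. Transcripts of the Y chromosome were low in both lines and none was called, with Kdm5d at most 1.19 CPM, Eif2s3y at most 0.729 CPM and Ddx3y at most 0.501 CPM in the 14 libraries.

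On some chromosomes small differences leaned to the same line over most genes. Of 1166 genes measured on chromosome 11, 680 were called higher in PSC5 and 58 higher in PSC4, and the median log2 difference was -0.268. On chromosome 12 the order was opposite, with 253 genes called higher in PSC4, 18 higher in PSC5 and a median of 0.235. Chromosomes X (0.180), 16 (0.165), 8 (0.121) and 19 (0.104) also stood above 0, and chromosomes 15 (-0.199), 18 (-0.155) and 3 (-0.126) below it. For comparison the median over all genes was 0.01.

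The shift was read in each library as the median of a chromosome's genes against the PSC5 mean in the same medium. For chromosome 11 the 6 PSC4 libraries ranged from -0.306 to -0.227, and the 8 of PSC5 from -0.004 to 0.004. For chromosome 12 these ranges were 0.155 to 0.376 and -0.036 to 0.036. The 2 lines did not overlap on 14 of 20 chromosomes. The left-out libraries overlapped the PSC5 range on 11 of these 14, and not on chromosomes 10, 16 and 18. On chromosome 18 they lay at 0.011 to 0.055, against -0.006 to 0.006 in PSC5 and -0.193 to -0.098 in PSC4. PSC5 values mirror each other in pairs, since they are set against their own mean, which narrows their range.

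The shift ran along whole chromosomes in some cases and along parts in others. All 20 Mb windows of chromosome 11 had medians between -0.305 and -0.237, and those of chromosome 12 between 0.127 and 0.262. On chromosome 17 the window from 40 to 60 Mb stood at -0.254 over 148 genes, while the whole chromosome was at -0.049. On chromosome 15 the first windows lay between -0.256 and -0.183, and the last, from 100 Mb on, which holds the HoxC cluster, was at 0.01, although read library by library PSC4 lay between -0.174 and -0.020 there. With the median of its chromosome taken off each gene, 354 called genes (5.9%) turned sign. Of 6000 called genes on these chromosomes 4324 were then under 0.5 in size, against 4118 of all 6016 called genes before. Of 936 genes with a size of at least 1 on these chromosomes, 873 kept that size. DNA was not measured, so chromosome number and regional regulation of transcription cannot be told apart.

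**Figure D3:**
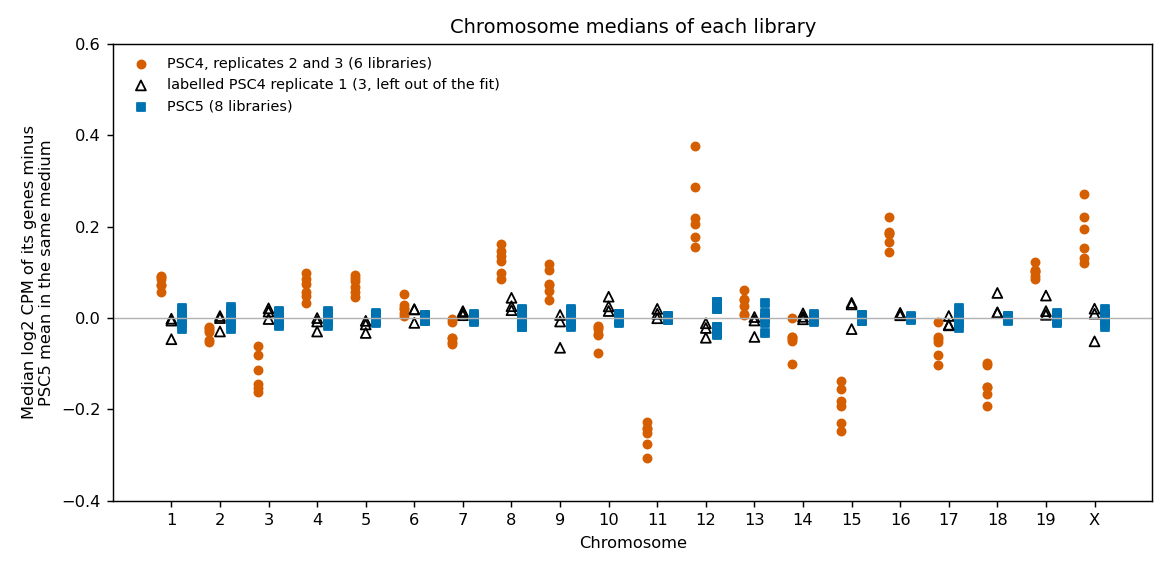
Median over the genes of each chromosome of log2 CPM minus the PSC5 mean in the same medium, 1 point per library; circles are PSC4, squares PSC5 and open triangles the libraries labelled PSC4 replicate 1. PSC4 lies between -0.306 and -0.227 on chromosome 11 and between 0.155 and 0.376 on chromosome 12, and the triangles lie with PSC5 on both.

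The 3 left-out libraries were placed on a scale where 0 is the PSC5 level and 1 the PSC4 level of the same medium, over the 6016 called genes. Their median position was 0.014 in CM, -0.015 in control medium and -0.138 in CM with neratinib. They were nearer to PSC5 in 88.7%, 88.5% and 73.0% of genes. For reference, each of the 14 libraries was placed by genes called without it. The PSC4 medians then ran from 0.816 to 1.11, and those of PSC5 from -0.108 to 0.268. These libraries were removed for this likeness, so their position is a description. The 3 libraries carry the lowest passage number of PSC4 (23), and their labels do not differ from the other PSC4 libraries in genotype or strain.

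Single genes mostly showed the same placement. Gas6 had 7.10 CPM in the left-out control library, 2.46 CPM in CM and 0.509 CPM in CM with neratinib, all inside the PSC5 range of 0.171 to 7.37 CPM. Igf2bp1 had 48.6, 53 and 79.9 CPM in them, far from the PSC4 maximum of 13.6 CPM, and the highest of these was above the PSC5 range. Lin28b, absent from the other PSC4 libraries, had 1.23, 2.25 and 0.805 CPM. On the 944 genes without overlap, the left-out libraries fell at or beyond the PSC5 edge in 868 genes (91.9%, CM), 848 (89.8%, control) and 776 (82.2%, CM with neratinib). For the 12 named genes higher in PSC4, none of the 36 values from the left-out libraries lay in the PSC4 range and 27 lay in the PSC5 range. For the 12 higher in PSC5, 3 of 36 lay in the PSC4 range and 26 in the PSC5 range. All 3 left-out values lay in the PSC5 range for 5 of the 12 genes on each side.

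The left-out library in CM with neratinib had the widest spread of positions of the 3. Its quartiles ran from -0.756 to 0.562, against -0.240 to 0.256 in CM and -0.270 to 0.249 in control medium. Oas1g, an interferon-induced enzyme, had 2.03 CPM in it, 46.1 CPM in the left-out CM library and 8.65 to 34.7 CPM in PSC5. Tenm3 had 8.01 CPM, within the PSC4 range of 4.49 to 10.4 CPM. The macrophage marker Cd68 had 12.3 CPM in it and at most 2.54 CPM in the other 16 libraries. The 10 immune markers summed to 13.8 CPM in this library, most of which was Cd68, and Ptprc was at 0 CPM. The rest of the immune list thus did not follow Cd68.

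**Figure D4:**
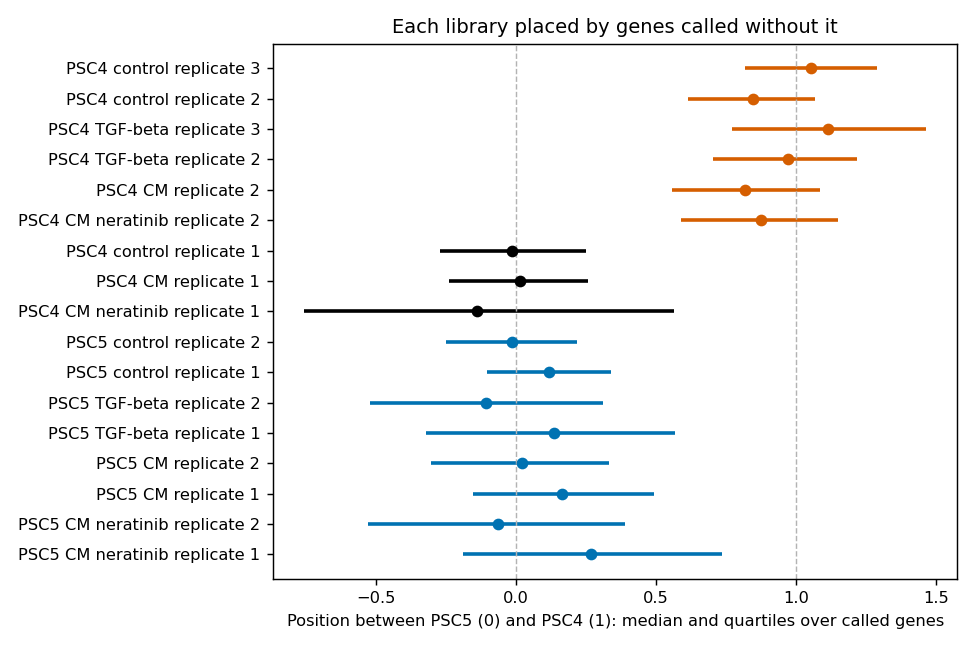
Median position (point) and quartiles (bar) of each library between PSC5 (0) and PSC4 (1), over genes called without that library; blue is PSC5, orange PSC4 and black the libraries labelled PSC4 replicate 1. The black medians, from -0.138 to 0.014, lie among the PSC5 medians of -0.108 to 0.268 or just below them.

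Whether the lines responded differently to the media was tested with interaction terms in the 14 libraries. Libraries were not removed on these responses. The removal still set the PSC4 control level and the spread, so the p-values below depend on it. With all 17 libraries by label no gene passed for TGF-beta in edgeR, with 623 at an unadjusted p under 0.05. For TGF-beta against control medium, 2 of 14817 genes passed in edgeR (0.0135%), Ccbe1 and Cxadr, with 1117 genes at an unadjusted p under 0.05 and 97 called by DESeq2. For CM no gene passed in edgeR (0%), with 238 at an unadjusted p under 0.05 and none by DESeq2. For CM with neratinib no gene passed in edgeR (0%), with 350 at an unadjusted p under 0.05 and 1 by DESeq2. The TGF-beta count was 0 without PSC4 control replicate 2 or 3, PSC5 control replicate 2 or PSC4 TGF-beta replicate 2, and 1 without PSC4 TGF-beta replicate 3, PSC5 TGF-beta replicate 2 or PSC5 CM replicate 1 or 2. It was 4 without PSC5 CM neratinib replicate 1 or 2, and 7 without PSC5 TGF-beta replicate 1. PSC4 had 1 library in each of the conditioned media, of code T6 alone while PSC5 had both codes, which limits these tests. A gene that did not pass is not shown to respond alike.

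Cxadr, the coxsackievirus and adenovirus receptor of cell junctions, moved in opposite directions. It had 14.4 and 14.9 CPM in the PSC4 control libraries and 3.84 and 3.72 CPM with TGF-beta. In PSC5 it had 6.97 and 6.94 CPM in control medium and 19.1 and 18.3 CPM with TGF-beta. The difference of the responses was -3.38 in log2 units (SE 0.36, adjusted p 0.0374, edgeR), and its adjusted p over 22 alternatives ran from 2.12e-12 to 0.358. The size stayed between -3.42 and -3.14.

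Ccbe1, a secreted protein needed for lymphatic vessel growth, was higher with TGF-beta in both lines, and more so in PSC5. It had 12.7 and 13.2 CPM in PSC4 control libraries and 57.7 and 45.5 CPM with TGF-beta, against 9.13 and 6.62 CPM and 172 and 165 CPM in PSC5. The difference of the responses was -2.43 (SE 0.23, adjusted p 0.0303, edgeR), with adjusted p from 5.97e-16 to 0.255 over 22 alternatives. Each gene lost its call in some fits that left out 1 library, Cxadr down to an adjusted p of 0.358 without PSC4 TGF-beta replicate 3 and Ccbe1 to 0.255 without PSC4 control replicate 3.

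Spock3, a secreted matrix proteoglycan singled out after its values were seen, was mostly present with TGF-beta in PSC5. It had 55.6 and 36.2 CPM there and 0.677 and 0.433 CPM in PSC4 with TGF-beta, and at most 2.65 CPM in any other of the 14 libraries. Its interaction did not pass (-1.37, SE 1.59, adjusted p 0.937, edgeR).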

How the data were processed

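RNA of 17 libraries was quantified per gene; the deposited estimated counts were made by the authors with Salmon 1.4.0, and DESeq 2 and the build GRCm38/mm10 are named, per the submitters' processing notes. Of 35896 gene IDs, 35437 had a symbol and 13192 were at 0 everywhere. Here the estimated counts were rounded, with totals moving by no more than 308. Genes passed filterByExpr (minimum count 10, total 15) over the 8 groups of line and medium. Normalisation was TMM, and tests were edgeR 4.0.16 quasi-likelihood fits with Benjamini-Hochberg adjustment (R 4.3.3, limma 3.58.1). The line term was fitted with medium as covariate, with 14 libraries and, as labelled, with 17, and responses by line came from cell means of 14 libraries. A depth of 3 counts is 0.109 CPM on average in PSC4 and 0.118 CPM in PSC5. Intervals and floors cover counting error only. The fits were tested on simulated data.

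Named genes were the 12 largest on each side as given in the report, the 5 most abundant with a log2 difference of at least 1 and no overlap, up to 4 per list with at least 5 CPM, sex-linked genes, and up to 5 per direction and interaction. The others, among them Hoxa9, Hoxb9, Hoxc11, Hoxc12, Trp53, Mdm2, Zmat3, Cdkn2a, Cdkn2c, Hbegf, Vegfc, Igfbp3, Des and Col1a1, were chosen after their values were seen. Members and lists were chosen with earlier results of these data known. Alternatives were other size factors, filters, a replicate block, DESeq2 1.42.0, subsets of libraries and leaving out each library. The filter by line, the chromosome medians taken off genes and the 20 Mb windows were added after seeing the data. Tables and figures used Python 3.11.15, pandas 2.3.3 and matplotlib 3.10.9.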

Additional observations from a re-analysis of the deposited data

Results flagged for a closer look

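The response to TGF-beta differed between the lines for 2 genes in edgeR with 14 libraries, and for 0 with all 17 by label. For Cxadr the difference of the log2 responses, PSC4 minus PSC5, was -3.38, with lower levels under TGF-beta in PSC4 and higher levels in PSC5. For Ccbe1 it was -2.43, with higher levels under TGF-beta in both lines.

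The median of chromosome 10 in PSC4 CM replicate 2 was -0.0775 against PSC5 in the same medium, apart from the other 5 PSC4 libraries. It was the 1 library found in 24 groups examined, and chance flags about 1 in 20 groups.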

How the results depend on the processing

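With 14 libraries the line difference called 6016 genes, 4739 to 6246 over the other tools, scalings, filters and subsets run, 942 with a log2 difference of at least 1, and 5165 to 6386 without 1 library. As labelled it called 945 genes, 2201 by DESeq2, 170 with a difference of at least 1, and 0 to 3006 without 1 library. With upper-quartile factors 60.7% of these calls were higher in PSC4, against 69%. For the response to TGF-beta the 2 calls became 1 with upper-quartile factors, 19 with no filter on low counts, 16 with control and TGF-beta libraries only, 0 with all 17 libraries by label, 97 by DESeq2 and 0 to 7 without 1 library. For CM the count was 0 in every fit run. For CM with neratinib it was 1 by DESeq2 and 0 to 1 without 1 library. The median position of PSC4 CM neratinib replicate 1 was -0.0035 over genes with a log2 difference of at least 2, against -0.138. The causes of these changes were not tested.

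With the replicate number as a block the counts were 4932 with 14 libraries, 6 as labelled, 3 for TGF-beta, 0 for CM and 0 for CM with neratinib. Libraries of the same line and number share a passage. Their deviations correlated with a median of 0.0638 over 7 distinct values (-0.00971 to 0.356), 2 of them over 0.1, so the numbers were not taken to pair samples.

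Over 107 genes named and called, 2277 of 2352 values with 14 libraries kept their call and 75 lost it, and none reversed. As labelled, 1726 of 2349 kept their side of the threshold, 481 lost the call, 142 gained it and none reversed. With 3 counts near 0.1 CPM, levels of genes such as Lin28b and Hoxc11 are limited by depth, and responses in conditioned media by 1 PSC4 library each.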
